A study of Homo sapiens with 6 samples.

Results

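The GIMAP genes encode a family of GTPases that are found mainly in lymphocytes, and in human they lie side by side on the long arm of chromosome 7. The genes described here are GIMAP8, GIMAP7, GIMAP4, GIMAP6, GIMAP2, GIMAP1 and GIMAP5, taken as the rows of the deposited tables that bear these symbols, 7 of 60640 gene identifiers in all. They were chosen because earlier work on these same libraries had shown several of them lower in IK-KO. Their values in that contrast therefore chose them and are given as a description, with no test.

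RNA-seq was performed on MOLT-4 cells, a long-established line of human T-lineage acute lymphoblastic leukemia (T-ALL). There were 2 groups of 3 libraries, both of MOLT-4 and with no treatment named in the labels. Wild type cells were the control of the CRISPR experiment, and IK-KO cells had been edited by CRISPR-Cas at IKZF1, which encodes the zinc finger transcription factor IKAROS. The comparison asks how the transcripts of this T-ALL line differ when IKAROS is targeted. The cells and their control were obtained as a commercially edited line. The labels do not name a clone and do not say whether the 3 replicates of a group came from separate cultures, so the group cannot be told apart from the history of a single edited population, and the spread between libraries may be technical.

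Values are FPKM, fragments scaled for transcript length and library depth. IKZF1 RNA itself was at 134, 124 and 105 FPKM in wild type cells, against 207, 260 and 207 FPKM in those labelled IK-KO (log2 change 0.89, SE 0.12, limma adjusted p = 0.00295). The RNA of the targeted gene was thus higher and not lower in the libraries labelled IK-KO, and an RNA level does not show whether protein is made. The study's supplementary methods state that PCR and western blotting were used to check the knockout. Its supplement also describes an IKAROS western blot of wild type cells and IKZF1-knockout clones. The tables hold no measure of IKAROS protein, so directions below refer to libraries by their label. All 13 T-lineage markers examined were above a mean of 1 FPKM over the 6 libraries, with a summed level of 2246 to 2342 FPKM in wild type and 2588 to 2832 FPKM in the IK-KO-labelled libraries. They did not move together, as 6 were called higher and 3 lower (69.2% called, against 19.9% of all tested genes). The higher ones were CD247 (log2 change 1.88, limma adjusted p = 7.79e-06), CD3G (0.65), CD3D (0.44), GATA3 (0.44), ZAP70 (0.30) and TCF7 (0.28). The lower ones were CD2, an adhesion receptor, which went from 61.5 ± 2.45 to 5.14 ± 0.217 FPKM (SD, n = 3, log2 change -3.35), CD7 (log2 change -1.72) and CD5 (log2 change -1.06), with limma adjusted p of 1.41e-06, 0.000412 and 0.000665. No B-cell marker of 8 and no myeloid marker of 9 reached a mean of 1 FPKM over the 6 libraries. Their sums were 1.62 to 3.81 and 0.174 to 0.744 FPKM in wild type, and 1.47 to 1.84 and 0.477 to 0.605 FPKM in the IK-KO-labelled libraries.

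GIMAP proteins share an AIG1-type GTP-binding domain, which is related to that of the septins, and some of them sit on intracellular membranes through a hydrophobic tail. They are best known from lymphocyte survival. Loss of GIMAP5 causes lymphopenia in rats and mice, GIMAP1 is needed for mature T and B cells, and levels of several members change as thymocytes mature. Members can act on each other, as GIMAP7 can stimulate GTP hydrolysis by GIMAP2 on lipid droplets.

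In the build of the deposited tables, hg38, the 7 genes span chr7:150450630-150750033, a stretch of 299.404 kb. By rising coordinate the order is GIMAP8, GIMAP7, GIMAP4, GIMAP6, GIMAP2, GIMAP1 and GIMAP5. The gaps are 35.478 kb between GIMAP8 and GIMAP7, 46.295 kb from there to GIMAP4, 51.421 kb to GIMAP6, 53.048 kb to GIMAP2 and 22.964 kb to GIMAP1. GIMAP1 and GIMAP5 overlap by 2.032 kb, and a readthrough gene, GIMAP1-GIMAP5, overlaps both. GIMAP6 alone is transcribed from the minus strand.

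The promoters are shown first because the 7 genes have a sequence feature in common there. RefSeq promoters of GRCh38.p14 were matched for all 7 genes, and the 250 bases before each start were searched on both strands for 5 motifs of 6 letters each. The motif letters were picked with the results of these libraries known. AGGAAG, a core sequence bound by ETS factors, was found in all 7 GIMAP promoters and in 28.7% of the 34943 promoters of the table. The match nearest the start, written in capitals below as AGGAAG or as CTTCCT where it lies on the opposite strand, is given with 12 bases on either side, 5′ to 3′ in the direction of transcription.
GIMAP8 (chr7:150450573-150450602, plus strand): aggacttgtgagAGGAAGtcctaaaggcca
GIMAP7 (chr7:150514814-150514843, plus strand): acccagcctgagCTTCCTgactgagaggtt
GIMAP4 (chr7:150567342-150567371, plus strand): ctcctcccctcaCTTCCTctcttctcctgt
GIMAP6 (chr7:150632390-150632419, minus strand): ctcttctgactcAGGAAGgccggtgctcct
GIMAP2 (chr7:150685663-150685692, plus strand): aagattcaagagAGGAAGaagaccgactgg
GIMAP1 (chr7:150716547-150716576, plus strand): gcccaccctgagCTTCCTgatttctgaagt
GIMAP5 (chr7:150737357-150737386, plus strand): agtgacccgttaAGGAAGcagcacatcgct

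These matches began 22 (GIMAP6) to 54 (GIMAP1) bases before the start. Among all 34943 promoters, 7.65% had the same letters within 54 bases of the start, a distance that was taken from the GIMAP promoters themselves. GIMAP8 and GIMAP5 had 2 matches each and GIMAP2 had 3, whereas the other 4 genes had 1. The whole GIMAP6 window, this match included, lies in an annotated exon, because the deposited GIMAP6 row begins upstream of the RefSeq start. The GIMAP5 start used here is the RefSeq start, which lies inside the longer GIMAP5 row of the deposited tables.

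TGGGAA, the core that IKAROS and RBPJ share, was present in 20.9% of all promoters and in 1 GIMAP promoter, that of GIMAP1, where it began 104 bases before the start. CAGATG, an E-box bound by TAL1, was present in 12.2% of all promoters and in those of GIMAP6 and GIMAP2. TGTGGT, bound by RUNX factors, and AGATAA, bound by GATA factors, occurred in 11.0% and 9.19% of all promoters and in 0 of the 7. The GC content of the GIMAP promoters was 39.6% (GIMAP2) to 49.2% (GIMAP1), against a median of 58.0% over all promoters. A match of letters is a description of these windows and not a bound site, and an absent match says nothing of the factor.

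Full promoters are given for GIMAP7 and GIMAP1, which share the longest identical stretch of any of the 21 pairs, and for GIMAP2, whose RNA stayed nearest to its wild type level. The ETS letters and the single TGGGAA are in capitals, and bases that fall in an annotated exon were left out.
GIMAP7 (chr7:150514622-150514871, plus strand): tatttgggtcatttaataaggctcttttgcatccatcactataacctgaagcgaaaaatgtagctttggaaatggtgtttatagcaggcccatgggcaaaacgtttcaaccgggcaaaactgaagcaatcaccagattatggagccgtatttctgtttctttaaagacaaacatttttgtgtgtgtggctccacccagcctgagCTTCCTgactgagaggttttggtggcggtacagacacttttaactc
GIMAP1 (chr7:150716363-150716605, plus strand): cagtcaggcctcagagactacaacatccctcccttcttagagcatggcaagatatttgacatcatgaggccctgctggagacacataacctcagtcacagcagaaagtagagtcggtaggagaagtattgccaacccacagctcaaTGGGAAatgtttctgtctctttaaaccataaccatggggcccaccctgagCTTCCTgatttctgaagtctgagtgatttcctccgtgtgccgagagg
GIMAP2 (chr7:150685456-150685696, plus strand): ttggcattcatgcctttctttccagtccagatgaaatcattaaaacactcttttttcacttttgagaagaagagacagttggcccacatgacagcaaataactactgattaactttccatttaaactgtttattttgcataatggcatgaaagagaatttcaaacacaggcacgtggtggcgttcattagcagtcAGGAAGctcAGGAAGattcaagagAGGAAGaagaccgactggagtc

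The stretch common to GIMAP7 and GIMAP1 is cctgagCTTCCTga, 14 bases that contain the ETS letters. It begins 52 bases before the start of GIMAP7 and 60 bases before that of GIMAP1. It was found in 3 of the 34943 promoters, those of GIMAP7 and GIMAP1 included. The median longest stretch over the 21 pairs was 8 bases, with both promoters of a pair read in the direction of transcription.

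All 7 genes had lower FPKM in every library labelled IK-KO than in any wild type library. Of all 27286 genes above 0 in at least 1 library, 12.4% separated the groups in this way, and of the 12652 genes tested below 18.1% did. As these values chose the genes, nothing is read from the count. The plot of GIMAP levels by library shows that the genes differed widely in how much RNA was left.

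**Figure D1:**
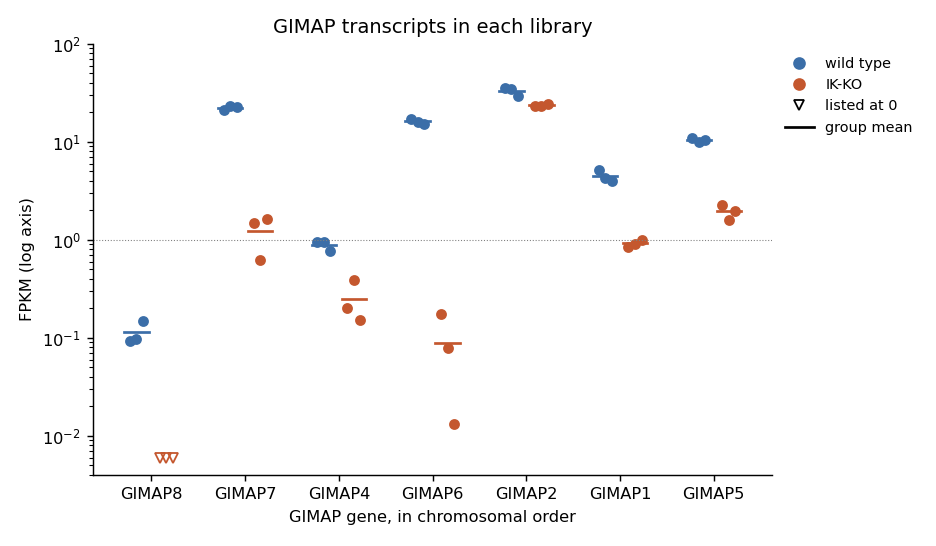
FPKM (log axis) of the 7 GIMAP genes, in chromosomal order, in 3 wild type libraries (blue) and 3 libraries labelled IK-KO (orange); each point is a library, bars are group means, open triangles mark libraries in which the gene is listed at 0 and are drawn at an arbitrary height, and the dotted line is 1 FPKM. The groups separate for every gene, with GIMAP2 closest together and GIMAP6 farthest apart among genes above 0 in all libraries.

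GIMAP6 encodes a cytosolic member that takes part in autophagy and binds GABARAPL2. It was at 17.3, 15.9 and 15.4 FPKM in wild type cells, against 0.175, 0.0786 and 0.0131 FPKM in the IK-KO-labelled libraries. The lowest wild type library was far above the highest IK-KO library, and in relative terms the 3 IK-KO-labelled values were spread more widely than those of any other member above 0. Mean levels were 16.2 ± 1.03 and 0.0888 ± 0.0813 FPKM (SD, n = 3), so 0.549% of the wild type mean remained. The deposited lower confidence bound was 0 in replicates 2 and 3 of IK-KO, and upper bounds were 0.334, 0.241 and 0.118 FPKM. The share that remained is therefore not resolved beyond being small. On the log2(FPKM + 1) scale the difference was -3.98 (SE 0.08, from the spread of the libraries), a scale that understates the fall of a gene this low.

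GIMAP7, the partner that can activate GIMAP2, was at 21.0, 23.0 and 22.5 FPKM in wild type. In the IK-KO-labelled libraries it was at 1.47, 0.618 and 1.65 FPKM. Replicate 2 of IK-KO was the lowest and the groups did not overlap. Means were 22.2 ± 1.03 and 1.25 ± 0.551 FPKM (SD, n = 3), a ratio of 17.8 and a log2(FPKM + 1) difference of -3.40 (SE 0.23). The deposited confidence bounds of GIMAP7, which has a single annotated transcript, correspond to about 27, 13 and 36 fragments in the 3 libraries labelled IK-KO and to 421 to 485 fragments in wild type, if the bounds are taken as 2 SD of a Poisson count.

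GIMAP5, a lysosomal member required for the survival of peripheral T cells, was at 10.9, 10.0 and 10.5 FPKM in wild type cells, against 2.28, 1.58 and 1.99 FPKM in the IK-KO-labelled libraries. The 3 values of a group lay close together and 18.6% of the wild type mean was left. Its log2(FPKM + 1) difference was -1.96 (SE 0.10).

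GIMAP1, which is required for the development and upkeep of mature lymphocytes, was at 5.21, 4.33 and 3.99 FPKM in wild type. The libraries labelled IK-KO were at 0.856, 0.912 and 1.01 FPKM, with the groups again apart, and 20.5% of the wild type mean remained. The log2(FPKM + 1) difference was -1.51 (SE 0.10).

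GIMAP1 and GIMAP5 cannot be read as fully separate measurements. They overlap each other and the readthrough gene GIMAP1-GIMAP5 (chr7:150716668-150743646), so fragments can be assigned to more than 1 of these rows. The readthrough row moved the other way, at 0.000569, 0.0507 and 1.72e-07 FPKM in wild type and 0.318, 0.222 and 0.186 FPKM in the IK-KO-labelled libraries. Its lower confidence bound was 0 in every wild type library and above 0 in every library labelled IK-KO, the lowest being 0.00607 FPKM. Summed over the 3 rows, the level was 15.0 ± 0.956 FPKM in wild type and 3.12 ± 0.371 FPKM in the IK-KO-labelled libraries (SD, n = 3), a ratio of 4.81 that lies close to those of GIMAP1 (4.88) and GIMAP5 (5.36).

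GIMAP2, a lipid droplet protein that forms scaffolds when bound to GTP, was the most abundant member in both groups. It was at 35.7, 34.8 and 29.3 FPKM in wild type cells, against 23.2, 23.3 and 24.6 FPKM in the IK-KO-labelled libraries. The groups did not overlap, but wild type replicate 3 came closer to the IK-KO-labelled libraries than the other two did. Means were 33.3 ± 3.50 and 23.7 ± 0.785 FPKM (SD, n = 3), so 71.2% of the wild type mean was left, with a log2(FPKM + 1) difference of -0.47 (SE 0.09).

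GIMAP4, which binds calmodulin and speeds the execution of T-cell apoptosis, was low throughout. It was at 0.948, 0.947 and 0.765 FPKM in wild type cells, against 0.202, 0.386 and 0.154 FPKM in the IK-KO-labelled libraries. The point values separated the groups, while the deposited confidence bounds did not. The highest upper bound in the IK-KO-labelled libraries was 0.913 FPKM and the lowest lower bound in wild type was 0.0297 FPKM.

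GIMAP8, the largest member with several GTPase domains in 1 chain, was near the limit of detection. It was at 0.0921, 0.0984 and 0.150 FPKM in wild type, which by the same reading of the bounds corresponds to 8, 9 and 12 fragments, and it was listed at 0 in all 3 libraries labelled IK-KO. At the wild type depth, 3 fragments would amount to 0.0345 FPKM. No ratio is given for it. The pseudogene GIMAP3P was listed at 0 in all 6 libraries.

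For GIMAP7, GIMAP6, GIMAP1 and GIMAP5, the upper confidence bound in each library labelled IK-KO was below the lower bound in each wild type library. GIMAP2 and GIMAP4 did not meet this. For GIMAP8 the comparison cannot be made, since its bounds are listed as 0 wherever its level is, and 3 fragments (0.0345 FPKM) lie above the lowest lower bound in wild type (0.027 FPKM). For GIMAP2 the highest upper bound in the IK-KO-labelled libraries was 28.3 FPKM and the lowest lower bound in wild type was 26.5 FPKM. These bounds describe 1 library at a time and do not cover the spread between cultures. In bulk RNA, fewer cells with GIMAP transcripts and less transcript per cell cannot be told apart.

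The order of levels differed between the groups. In wild type it ran GIMAP2, GIMAP7, GIMAP6, GIMAP5, GIMAP1, GIMAP4 and GIMAP8, and no neighbours in that order overlapped between libraries. In the IK-KO-labelled libraries it ran GIMAP2, GIMAP5, GIMAP7, GIMAP1, GIMAP4, GIMAP6 and GIMAP8, and the ranges of GIMAP5 and GIMAP7, of GIMAP7 and GIMAP1 and of GIMAP4 and GIMAP6 overlapped. GIMAP6 moved from the third place to the sixth.

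Summed over the 7 genes, GIMAP RNA was at 91.3, 89.0 and 82.5 FPKM in wild type cells, against 28.2, 26.9 and 29.4 FPKM in the IK-KO-labelled libraries. The group means were 87.6 ± 4.53 and 28.2 ± 1.28 FPKM (SD, n = 3), a ratio of 3.11. GIMAP2 made up 37.9% ± 2.11 of the sum in wild type and 84.2% ± 2.24 in the IK-KO-labelled libraries (SD, n = 3). Without GIMAP2, the sum was 54.3 ± 1.12 FPKM in wild type and 4.46 ± 0.767 FPKM in the IK-KO-labelled libraries, a ratio of 12.2. The share of GIMAP7 went from 25.4% to 4.38% and that of GIMAP6 from 18.5% to 0.319%, so that the make-up of the cluster's RNA changed along with its amount.

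**Figure D2:**
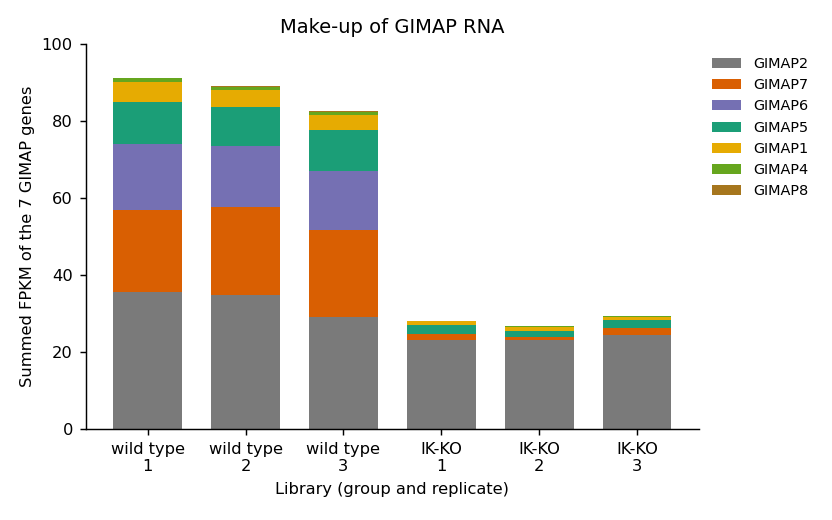
Stacked FPKM of the 7 GIMAP genes in each library, with wild type replicates 1 to 3 on the left and IK-KO replicates 1 to 3 on the right. The bars reach 82.5 to 91.3 FPKM in wild type and 26.9 to 29.4 FPKM in IK-KO, where GIMAP2 (grey) makes up most of the height.

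Across all genes, limma on log2(FPKM + 1) tested 12652 genes with a mean of at least 1 FPKM. At an adjusted p under 0.05 it called 2515 of them, or 19.9%, of which 1282 (10.1%) rose and 1233 (9.75%) fell with the IK-KO label. The median change was 0.02. A log2 change of -2 or lower was seen in 53 tested genes, or 0.419%, and GIMAP6 and GIMAP7 are among these. Of the 7 GIMAP genes, 5 passed the filter on low values, with a median change of -1.96, and GIMAP4 and GIMAP8 did not pass.

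Whether the genes beside the cluster moved with it was examined over 1 Mb on either side. The tables list 74 other genes there, and 29 were tested. Of these, 6 were called (20.7%), 2 higher and 4 lower, against 19.9% of all tested genes, and the median change was -0.01. Over chromosome 7 without the GIMAP genes, 107 of 646 tested genes were called (16.6%). On the log2(FPKM + 1) scale, changes as large as those of GIMAP6 and GIMAP7 were not seen among the tested neighbours, which ran from -1.99 to 0.98. The lowest were BET1P1 (-1.99), which overlaps GIMAP5, and ATP6V0E2 (-1.82), so they reached the size seen for GIMAP5 (-1.96) and GIMAP1 (-1.51). Within 3 Mb the lowest change was -2.87.

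The nearest tested genes on the GIMAP8 side were AC073111.4, AC073111.3 and ZNF775, at 38.16, 40.033 and 52.0 kb, and none was called. ZNF775, a zinc finger gene, was at 11.5, 11.0 and 11.6 FPKM in wild type and 11.1, 10.9 and 8.85 FPKM in the IK-KO-labelled libraries (log2 change -0.14, adjusted p = 0.383). AC073111.4 changed by 0.06 (adjusted p = 0.846) and AC073111.3 by 0.03 with an SE of 0.88, since it was near 0 in 4 libraries and at 4.29 and 4.58 FPKM in the others. These models overlap other genes, so their levels are uncertain.

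On the GIMAP5 side the nearest tested genes were ABCB8, a mitochondrial transporter, CDK5, a kinase, and SLC4A2, an anion exchanger, at 278.389, 303.782 and 307.177 kb. ABCB8 was at 30.5, 32.2 and 31.4 FPKM in wild type and 25.6, 27.7 and 23.1 FPKM in the IK-KO-labelled libraries, a change of -0.29 (limma adjusted p = 0.0368). CDK5 changed by -0.11 (adjusted p = 0.462) and SLC4A2 stood at 69.5 ± 5.42 and 69.3 ± 2.56 FPKM (SD, n = 3). BET1P1, a pseudogene that overlaps the end of GIMAP5, was at 4.85, 7.79 and 0.226 FPKM in wild type cells, against 0 in the IK-KO-labelled libraries, and it was not called (adjusted p = 0.0794).

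The other called neighbours lay 488.731 kb or farther from the cluster. ATP6V0E2, a subunit of the vacuolar proton pump at 559.426 kb, was at 13.3, 12.2 and 12.6 FPKM in wild type cells, against 5.51, 2.37 and 1.65 FPKM in the IK-KO-labelled libraries (log2 change -1.82, SE 0.30, limma adjusted p = 0.00664). PRKAG2, a subunit of AMP-activated kinase, fell from 3.76 ± 0.484 to 1.37 ± 0.233 FPKM (SD, n = 3, limma adjusted p = 0.00394). SMARCD3, a subunit of the BAF remodelling complex, fell by 0.71 on the log2 scale (limma adjusted p = 0.0161). ZNF467 rose by 0.98 and RHEB, a GTPase upstream of mTORC1, by 0.28 (limma adjusted p = 0.022 and 0.0214). The count of 6 was smaller with any library left out, as was the count over all tested genes, which went from 2515 to between 1692 and 2004. For the neighbours it was 3, 4 and 3 without wild type replicates 1, 2 and 3. It was 2, 3 and 5 without IK-KO replicates 1, 2 and 3.

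**Figure D3:**
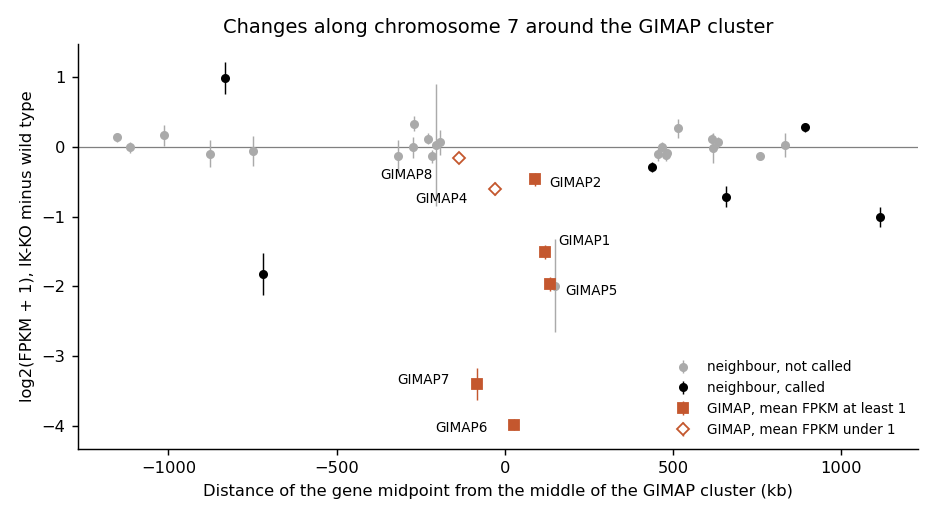
Log2(FPKM + 1), IK-KO minus wild type, against the distance in kb of each gene's midpoint from the middle of the cluster, for the 7 GIMAP genes (orange) and the 29 tested genes within 1 Mb (grey, not called; black, called); error bars are SE. GIMAP1, GIMAP5, GIMAP6 and GIMAP7 lie between -1.51 and -3.98, the nearest tested genes on either side lie near 0, and the grey point beside GIMAP5 is the pseudogene BET1P1.

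Proteins reported to bind a GIMAP protein, or close relatives of these, were read as a list of 16 genes that holds BCL2 family members, ATG8 family members, GSK3B and CTNNB1. This list and those below were drawn up with earlier results of these libraries known, so their shares of called genes are a description. Of 13 tested, 4 were higher and 0 lower (30.8% called, against 19.9% of all tested genes), with a median change of 0.20 against 0.02 over all tested genes. Before adjustment, 7 were higher and 0 lower at p under 0.05. The called genes were GABARAP and MAP1LC3B, ATG8-type proteins of autophagosome membranes, BCL2L1, an inhibitor of apoptosis, and BAX, a pore-forming promoter of it.

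GABARAP was at 157, 147 and 128 FPKM in wild type and 176, 183 and 189 FPKM in the IK-KO-labelled libraries (log2 change 0.35, SE 0.08, limma adjusted p = 0.0204). BCL2L1 was at 57.7, 62.4 and 62.7 against 79.1, 75.3 and 70.0 FPKM (log2 change 0.29, SE 0.06, limma adjusted p = 0.0195). These changes are small and the groups did not overlap for either gene. GABARAPL2, the reported partner of GIMAP6, was at 63.4, 60.9 and 56.5 FPKM in wild type and 61.7, 65.1 and 61.1 FPKM in the IK-KO-labelled libraries (adjusted p = 0.567). The count of 4 was 1, 1 and 2 without wild type replicates 1, 2 and 3. It was 3 without IK-KO replicate 3, 1 without IK-KO replicate 1 and 0 without IK-KO replicate 2. In that last setting, before adjustment, 5 were higher and 1 lower at p under 0.05. Calls over all tested genes also fell with each library left out.

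Transcription factors that act in T-ALL and lymphoid cells formed a list of 28, of which 24 were tested, 9 higher and 5 lower (58.3% called, against 19.9% of all tested genes). The targeted gene IKZF1 is itself among the 9. The largest changes were in ERG, an ETS factor, and IKZF3, which encodes the IKAROS relative AIOLOS. ERG fell from 15.1, 17.0 and 15.2 FPKM in wild type to 4.24, 3.96 and 4.49 FPKM in the IK-KO-labelled libraries (log2 change -1.68, SE 0.09, limma adjusted p = 7.56e-05). IKZF3 rose from 4.06, 3.59 and 3.56 to 7.89, 8.57 and 8.01 FPKM (log2 change 0.95, SE 0.09, limma adjusted p = 0.000793).

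Since the GIMAP promoters share letters of the ETS core, the other ETS genes of the list are given here too, chosen after their values were seen. ETS1 fell from 123, 128 and 110 FPKM to 84.7, 86.2 and 87.3 FPKM and ETS2 from 16.4, 18.7 and 15.2 to 11.7, 11.3 and 11.4 FPKM, log2 changes of -0.48 and -0.51 (limma adjusted p = 0.00302 and 0.0079). FLI1 rose from 46.0, 41.0 and 44.3 to 54.6, 61.9 and 52.7 FPKM (log2 change 0.36, limma adjusted p = 0.0187). The ETS genes therefore did not move in 1 direction. The part of any of them in the GIMAP levels was not tested.

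Since GIMAP genes change during thymocyte maturation, genes of immature and of mature T cells were read beside them. All 15 cortical thymocyte genes were tested and 13 were called (86.7%, against 19.9% of all tested genes), 6 higher and 7 lower. RAG1, which encodes a recombinase subunit, fell from 58.3 ± 4.06 to 16.6 ± 1.43 FPKM (SD, n = 3, log2 change -1.75, limma adjusted p = 5.07e-05), and DNTT, which adds untemplated bases to receptor joints, fell by 1.66 on the log2 scale (limma adjusted p = 2.06e-05). The CD1 genes within the list were split, with CD1E and CD1B lower and CD1A, CD1C and CD1D higher, a set named after its values were seen. Of the mature T-cell genes, 11 of 14 were tested and 7 called (63.6%, against the same 19.9%), 1 higher and 6 lower, with a median change of -0.64. CD5, an inhibitory receptor of T cells, fell by 1.06 on the log2 scale and ITGAL, an integrin chain, by 0.99 (limma adjusted p = 0.000665 and 0.0129). The exception was KLF2, a factor of quiescent T cells, which rose by 0.87 (limma adjusted p = 0.000247).

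Other GTPases of immune cells, namely guanylate-binding proteins, MX proteins and immunity-related GTPases, were compared as a separate family. Of 13, 7 were tested, 0 higher and 2 lower (28.6% called, against 19.9% of all tested genes), with a median change of -0.28; at an unadjusted p under 0.05 the counts were also 0 and 2. MX2, an interferon-induced antiviral GTPase, was at 34.6, 28.6 and 25.6 FPKM in wild type and 9.44, 7.80 and 7.86 FPKM in the IK-KO-labelled libraries (log2 change -1.70, SE 0.13, limma adjusted p = 0.000233). Its paralog MX1 fell by 0.78 on the log2 scale (limma adjusted p = 0.00312). GBP1, GBP3 and GBP4 were not called, with adjusted p of 0.177, 0.284 and 0.176.

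The septins, filament-forming GTPases whose domain is related to that of GIMAP proteins, were read in the same way. Of 13, 9 were tested, 0 higher and 2 lower (22.2% called, against 19.9% of all tested genes), and at an unadjusted p under 0.05 the counts were 0 and 3. SEPTIN11 fell by 0.56 and SEPTIN1 by 0.25 on the log2 scale (limma adjusted p = 0.011 and 0.0196). The count of 2 was 1 without wild type replicate 1 or 3 and 1 without IK-KO replicate 1 or 3. It stayed at 2 without replicate 2 of either group.

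**Figure D4:**
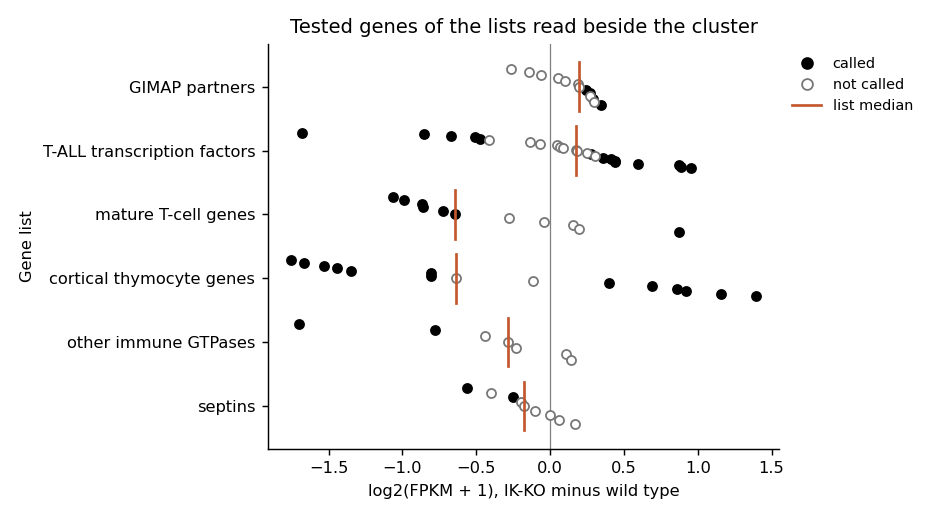
Log2(FPKM + 1), IK-KO minus wild type, for the tested genes of 6 lists; filled points were called at an adjusted p under 0.05, open points were not, and the vertical bar is the list median. The medians run from -0.64 for the mature T-cell and cortical thymocyte genes to 0.20 for the GIMAP partners, and the cortical thymocyte genes spread to both sides. The lists were drawn up with earlier results of these libraries known.

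The genes outside the cluster whose levels most resembled the summed GIMAP RNA were named by Pearson's r of log2 values over the 6 libraries. Among the 5 most alike were MT-RNR2, a mitochondrial ribosomal RNA, MPP2, a membrane scaffold, RAG1, and CR2, the complement receptor CD21. MT-RNR2 went from 4173 ± 42.5 to 3253 ± 42.9 FPKM and CR2 from 2.27 ± 0.13 to 0.0156 ± 0.0176 FPKM (SD, n = 3), so likeness here measures the split between the groups and the order of libraries within them, not the size of the change. With 2 separated groups of 3, r reached 0.99 in 137 tested genes (1.08%).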

How the data were processed

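Poly(A) RNA of MOLT-4 cells was sequenced in 6 libraries, 3 wild type and 3 IK-KO, grouped by their labels. The authors deposited gene-level FPKM tables with confidence bounds, in the layout of Cufflinks, which scale for transcript length and depth. The submitters' processing notes name STAR 2.6.1c, Cufflinks 2.2.1, HOMER 4.10 and hg38 without their roles. Annotation and strand setting are not given in the sources used here, so fragments of overlapping genes may be shared or misassigned, and fragment totals are unknown. Each table had 60752 rows. Rows with a failed estimate (29) were left out. FPKM summed to 699352 to 738051 per library.

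Genes with a mean of at least 1 FPKM were fitted with limma 3.58.1 (R 4.3.3; moderated test with a mean-variance trend, two-sided) on log2(FPKM + 1), Benjamini-Hochberg adjusted over all tested genes, and called at an adjusted p under 0.05. The procedure was tested on simulated data. SE of the GIMAP genes came from the spread of the libraries. Gene positions matched GENCODE release 44. Genes were named by rule: the GIMAP rows, the 3 nearest tested and every called neighbour, the 2 largest called changes per list, the 5 most alike genes (1 of them is not reported here) and IKZF1. The GIMAP genes and the 13 gene lists were chosen with earlier results of these data known. With p-values from replicates that may be technical, only the spread between these libraries is measured. Alternatives were the pseudocount, the filter, the scaling, a replicate block and leaving out each library.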

Additional observations from a re-analysis of the deposited data

How the results depend on the processing

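Every GIMAP gene kept its direction under each alternative that could be computed. This adds no support, since the genes were chosen by this contrast and their groups do not overlap. For GIMAP4 and GIMAP8 only 1 alternative could be computed, the one without the filter, which leaves their values unchanged. The median log2 change of the GIMAP genes, -1.96 (5 genes), became -2.38 with a pseudocount of 0.1, -2.17 with 0.5, -1.51 without the filter (all 7 genes) and -2.68 with a mean of at least 5 FPKM (4 genes). GIMAP6 moved to -6.52 with a pseudocount of 0.1. The summed FPKM and the counts over all tested genes, T-ALL transcription factors, other immune GTPases, mature T-cell genes and cortical thymocyte genes stayed within 1.5 times or 1 SD throughout.

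Of the neighbours, 3 were called without the filter, 2 within 0.5 Mb, 10 within 3 Mb and 2 to 5 with a library left out. Of the GIMAP partners, 0 were called without the filter (before adjustment, 7 higher and 0 lower at p under 0.05) and 0 to 3 with a library left out. Of the septins, 1 to 2 were called with a library left out. The causes were not tested. The labels do not say whether same-numbered libraries were prepared together. Their deviations from the group means correlated at 0.0669, 0.0248 and 0.00546, and those of differently numbered libraries at -0.0878 to 0.0599. These values show no shared replicate effect, which does not settle how the libraries were prepared. With the replicate number as a block, 0 GIMAP partners (before adjustment, 8 higher and 0 lower at p under 0.05) and 1 septin were called. Among the other 28 genes named by rule, no change reversed where it was called, and 41 of 415 recomputed values lost their call. ABCB8, BCL2L1, GABARAP, ITGAL, RHEB, SEPTIN1, SMARCD3 and ZNF467 lost it in at least 1 setting. Genes named outside the rule, such as BAX, MAP1LC3B, CD2, KLF2 and ETS1, were not followed singly. BAX and MAP1LC3B also lost their calls in the settings where 0 GIMAP partners were called.

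GIMAP4 and GIMAP8 are limited by their low level: both were under 1 FPKM in all 6 libraries, and a level of 0 for GIMAP8 is a detection limit. The level of GIMAP6 in the IK-KO-labelled libraries is limited in the same way.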

Other observations

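A few genes that were too low for the test also separated the groups, and were picked after their values were seen. GVINP1, a pseudogene of the very large inducible GTPase family, was at 1.27, 1.36 and 1.43 FPKM in wild type cells, against 0.233, 0.240 and 0.297 FPKM in the IK-KO-labelled libraries. KCNH2, a potassium channel gene within 1 Mb of the cluster, was at 1.26, 1.41 and 1.53 FPKM in wild type and 0.327, 0.550 and 0.462 FPKM in the IK-KO-labelled libraries. Of all 27286 genes above 0 in at least 1 library, 12.4% separated the groups in this way. Neither gene passed the filter on low values. Without that filter both were fitted, but their own results are not given here. In that setting 3 of 11 other immune GTPases and 3 of 54 neighbours were called, all of them lower.

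Lists of markers of other cells held few expressed genes. Of 8 endothelial markers, 4 were at 0 in all 6 libraries and 1 was tested, PECAM1, which T cells can also express and which was at 15.7 to 21.5 FPKM. The list summed to 16.2 to 18.3 FPKM in wild type and 17.8 to 21.7 FPKM in the IK-KO-labelled libraries. The 8 NK-cell markers summed to 3.54 to 5.53 and 2.40 to 5.73 FPKM, and the 10 stromal and epithelial markers to 1.11 to 2.27 and 1.64 to 1.90 FPKM. Each of these lists held 1 tested gene (PECAM1, NKG7 and KRT8), and limma called 0 of the 3, as it did before adjustment at p under 0.05.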
